A study of Mus musculus with 91 samples.

Results

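The cryptochromes Cry1 and Cry2 were followed in mRNA bound to ribosomes of the mouse nucleus accumbens, the ventral part of the striatum. They were chosen by Ensembl identifier, ENSMUSG00000020038 for Cry1 and ENSMUSG00000068742 for Cry2, and both were found among the 14355 genes of the count table. The series held 91 libraries, 45 from D1 neurons (23 female, 22 male) and 46 from D2 neurons (23 female, 23 male). D1 libraries came from Drd1-Cre mice and D2 libraries from A2a-Cre mice. Both lines were crossed to RiboTag mice, in which Cre switches on an HA-tagged Rpl22, a ribosomal protein, so that an antibody against the tag pulls down ribosomes of the Cre-expressing cells with their mRNA. All animals carried this tag, were older than 10 weeks, and lived under 12 h of light and 12 h of darkness. Tissue was taken at 6 zeitgeber times (ZT, hours after lights on), which were ZT2, ZT6, ZT10, ZT14, ZT18 and ZT22. Each sample pooled tissue of 2 mice, and the 24 combinations of cell type, sex and time held 3 or 4 samples each, marked by a letter from A to E in the title. The labels do not say what a letter stands for. Cell type and mouse line cannot be told apart in this design, and p-values measure only the spread between these samples. In such bulk pull-downs, fewer cells of a type and less RNA per cell also cannot be told apart.

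Cryptochromes are repressors of the mammalian circadian clock. In the core loop, CLOCK and BMAL1 bind E-boxes and switch on the Period and Cryptochrome genes, and the PER and CRY proteins then enter the nucleus and block CLOCK and BMAL1. CRY1 and CRY2 do the same kind of work but are not interchangeable, since mice without Cry1 run a fast clock and mice without Cry2 a slow one. Cry1 mRNA is known in many tissues to peak later than other E-box genes, because a ROR response element inside the gene is repressed by the REV-ERB receptors, while Cry2 mRNA oscillates weakly. Nucleus accumbens spiny neurons with D1 or D2 dopamine receptors keep molecular clocks and take part in reward behaviour that varies over the day.

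Both promoters are shown because the E-box is the DNA element through which the clock acts on these genes. Both members matched RefSeq entries on GRCm38.p6, where Cry1 lies at chr10:85131700-85185054 and Cry2 at chr2:92403646-92434085, both on the minus strand. The sequences are the 250 bases before the transcription start that the RefSeq promoter table uses, at chr10:85185055-85185304 for Cry1 and chr2:92434070-92434319 for Cry2, read 5′ to 3′ on the minus strand. For Cry1 that start is the outer end of the gene, and for Cry2 it lies 16 bases inside it. Capitals mark the E-box CACGTG and the E-prime box, CACGTT or its reverse complement AACGTG.
Cry1: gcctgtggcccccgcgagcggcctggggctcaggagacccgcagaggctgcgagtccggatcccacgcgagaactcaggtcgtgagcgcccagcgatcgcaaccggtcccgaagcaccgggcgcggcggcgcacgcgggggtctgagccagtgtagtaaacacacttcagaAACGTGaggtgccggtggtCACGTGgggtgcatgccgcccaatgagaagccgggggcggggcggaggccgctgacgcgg
Cry2: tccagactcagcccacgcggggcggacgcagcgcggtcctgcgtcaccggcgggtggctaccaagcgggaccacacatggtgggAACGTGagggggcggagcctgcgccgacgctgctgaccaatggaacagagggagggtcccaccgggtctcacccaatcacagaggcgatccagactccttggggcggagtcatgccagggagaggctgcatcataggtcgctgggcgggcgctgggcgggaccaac
The Cry1 window held an E-box 60 to 55 bases before that start and an E-prime box 79 to 74 bases before it. The Cry2 window held an E-prime box 166 to 161 bases before the start used by the table and no E-box. Searched on both strands, CACGTG occurred in 6.02% and CACGTT in 3.85% of the 32851 promoter windows of this length, and matches of these 2 motifs cannot overlap. A ROR element core (TAGGTCA, 2.23% of windows), a D-box (TTATGTAA or TTACGTAA, 0.931%) and a cAMP response element (TGACGTCA, 1.55%) were found in neither window. Both windows were rich in G and C, at 71.2% for Cry1 and 68.8% for Cry2 against a median of 52.4%. These matches describe the letters of the window and not binding.

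Depth and the libraries that stood apart frame the values. Library totals ran from 6872165 to 24665262 counts, and the member counts behind each value ran from 176 to 1208 for Cry1 and from 869 to 4151 for Cry2. Counting error alone therefore gave a coefficient of variation of 2.88% to 7.54% for Cry1 and 1.55% to 3.39% for Cry2. The 3 D1 male libraries at ZT10 B, ZT22 B and ZT18 D stood apart from the others in earlier results of these data, and results that rest on them are also given without them. The ZT10 B library had the lowest Cry1 level in D1 (21.4 CPM) and the highest Cry2 level of all (212.7 CPM), where CPM is counts scaled to the TMM-adjusted library total, as edgeR computes it. The other apart libraries had 36.9 CPM of Cry1 and 193.5 CPM of Cry2 at ZT22 B, and 33.6 and 179.9 CPM at ZT18 D. Genes other than the cryptochromes could not be named from the table, so the cell type labels were not checked against marker genes.

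In D2 neurons Cry1 was lowest in the middle of the light phase and highest early in the dark phase. It averaged 25.4 ± 4.76 CPM at ZT6 (SD, n = 7; lowest 20.1, median 24.4, highest 32.4) and 37.4 ± 8.91 CPM at ZT14 (SD, n = 8; 28.0, 36.9 and 52.1), a ratio of 1.47. Of the ZT14 libraries, 5 of 8 lay above every ZT6 library, and the groups overlapped. Between these times Cry1 stood at 31.9 ± 10.0 CPM at ZT10 (SD, n = 8; 22.7, 28.2 and 49.6). After ZT14 it stood at 37.0 ± 9.61 CPM at ZT18 (SD, n = 8; 27.9, 35.3 and 53.1) and at 33.5 ± 7.08 CPM at ZT22 (SD, n = 8; 23.1, 33.5 and 42.4). At ZT2, early in the light phase, it was 29.9 ± 6.97 CPM (SD, n = 7; 23.1, 27.7 and 39.0). The order of the D2 means from high to low was ZT14, ZT18, ZT22, ZT10, ZT2, ZT6, and no neighbours in that order differed by more than their pooled SD. The female ZT6 libraries had 24.9 CPM for letter A, 31.6 for B, 22.1 for C and 24.4 for D, while the female ZT14 libraries had 52.1, 39.8, 28.0 and 30.6 CPM. The male ZT6 libraries had 32.4 CPM for A, 22.4 for C and 20.1 for D, against 39.3, 34.4 and 28.0 CPM at ZT14. Cry1 was thus higher at ZT14 in 7 of 7 pairs of the same letter and sex, by 0.28 to 1.06 on the log2 scale. These times were picked as those of the highest and lowest mean, so the count is no test.

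In D1 neurons the Cry1 means spanned a narrower range, with high means early in the light phase and early in the dark phase. It averaged 37.6 ± 5.09 CPM at ZT2 (SD, n = 8; lowest 28.1, median 37.1, highest 46.1) and 37.8 ± 6.01 CPM at ZT14 (SD, n = 7; 25.9, 39.5 and 44.2). The lowest means fell between them, at 29.7 ± 5.69 CPM at ZT6 (SD, n = 8; 23.5, 28.4 and 42.3) and 29.4 ± 6.11 CPM at ZT10 (SD, n = 8; 21.4, 28.2 and 38.9). Late night values were intermediate, with 34.2 ± 4.53 CPM at ZT18 (SD, n = 6; 29.0, 34.7 and 39.1) and 32.9 ± 2.76 CPM at ZT22 (SD, n = 8; 29.3, 32.3 and 36.9). From high to low the D1 order was ZT14, ZT2, ZT18, ZT22, ZT6, ZT10, again with no neighbours beyond their pooled SD. Cry1 at ZT14 was 1.29 times its ZT10 level, with overlapping groups, and was higher in 6 of 7 pairs of the same letter and sex. These times were likewise picked by their means, and letters were not taken to pair the D1 libraries, so the count is no test. Without the 3 libraries that stood apart the ZT10 mean was 30.5 ± 5.62 CPM (SD, n = 7).

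The Cry2 means spanned a narrower relative range over the day than the Cry1 means in both cell types. In D2 neurons they ran from 147.2 ± 14.7 CPM at ZT22 (SD, n = 8; lowest 128.4, median 151.5, highest 169.4) to 169.5 ± 18.6 CPM at ZT14 (SD, n = 8; 149.0, 166.1 and 201.0), a ratio of 1.15. The groups overlapped, and ZT14 was the higher time in 7 of 8 pairs of the same letter and sex, with the times again picked by their means. The other D2 means were 155.5 ± 16.5 CPM at ZT2 (SD, n = 7), 157.8 ± 12.2 at ZT6 (SD, n = 7), 164.4 ± 15.1 at ZT10 (SD, n = 8) and 158.2 ± 16.6 at ZT18 (SD, n = 8). The order from high to low was ZT14, ZT10, ZT18, ZT6, ZT2, ZT22. In D1 neurons the Cry2 means ran from 158.3 ± 16.6 CPM at ZT22 (SD, n = 8; 141.9, 157.6 and 193.5) to 173.4 ± 17.3 CPM at ZT10 (SD, n = 8; 157.2, 172.0 and 212.7), a ratio of 1.10. They were 168.3 ± 14.0 CPM at ZT2 (SD, n = 8), 164.5 ± 14.4 at ZT6 (SD, n = 8), 169.8 ± 13.1 at ZT14 (SD, n = 7) and 161.5 ± 14.9 at ZT18 (SD, n = 6), which put the order at ZT10, ZT14, ZT2, ZT6, ZT18, ZT22. Without the 3 libraries that stood apart, the D1 means were 167.8 ± 7.58 CPM at ZT10 (SD, n = 7) and 153.3 ± 9.19 at ZT22 (SD, n = 7), so that ZT14 and ZT2 then stood above ZT10. No neighbours in either order of all libraries differed by more than their pooled SD. CPM takes no account of transcript length, so the higher CPM of Cry2 is not a comparison of level between the genes.

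**Figure D1:**
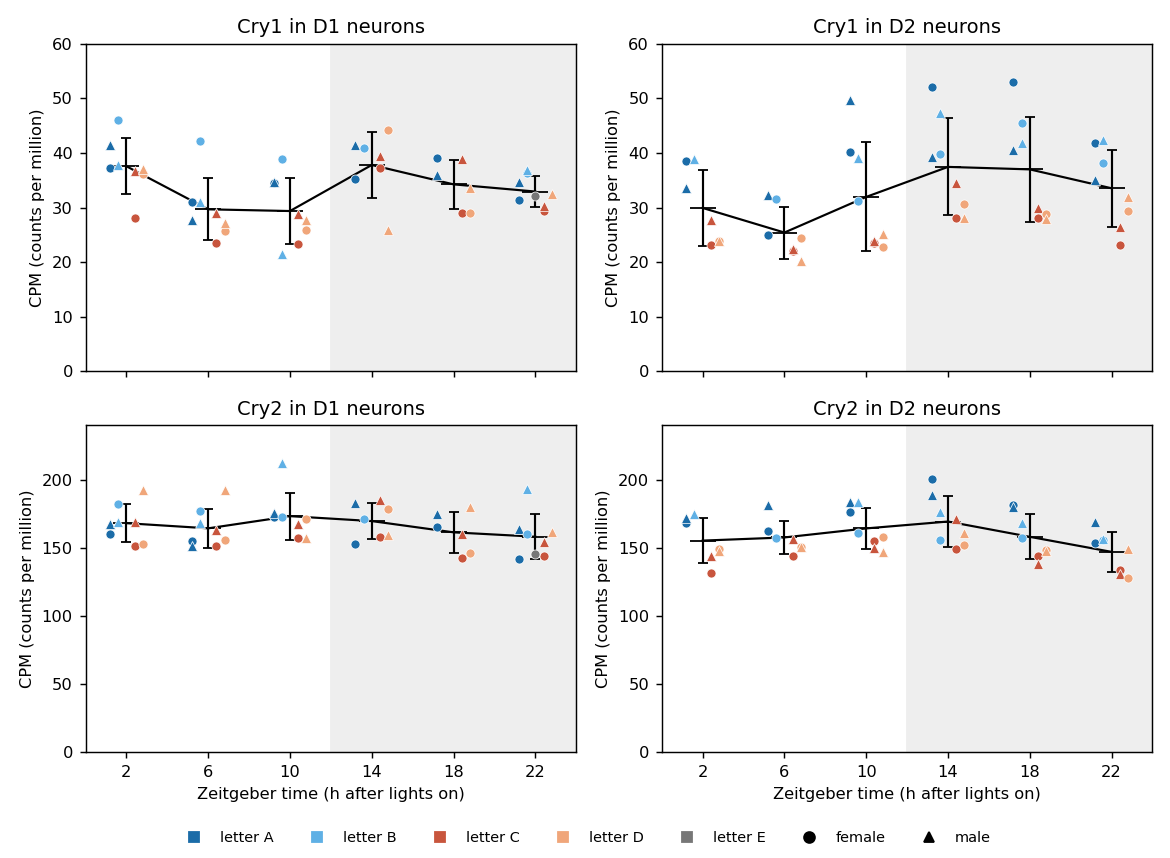
CPM of Cry1 (top) and Cry2 (bottom) against zeitgeber time in D1 (left) and D2 (right) neurons, with the dark phase shaded, 1 point per library coloured by letter and shaped by sex, and black bars for mean ± SD of all libraries at a time. D2 Cry1 runs from a mean of 25.4 CPM at ZT6 to 37.4 CPM at ZT14, with the points of letters A and B mostly above those of C and D.

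Rhythm was tested by fitting a 24 h cosine with its own mean, amplitude and peak in each sex and testing the average of the sexes, with amplitude given from mean to peak. In D2 neurons Cry1 had an amplitude of 0.25 ± 0.07 on the log2 scale (SE), a peak-to-trough ratio of 1.42, and a fitted peak at ZT 16.8. Its p was 0.00449 (n = 46 libraries) and its adjusted p was 0.102 by edgeR's quasi-likelihood test with Benjamini-Hochberg adjustment, so it was not called. Of all genes, 2.94% were called rhythmic in D2. With the letter as a replicate block, the D2 amplitude of Cry1 was 0.23 ± 0.03 (SE), its peak ZT 16.9 and its adjusted p 2.08e-05, and Cry1 was called. That fit called 22.3% of all genes, against which the call of Cry1 is to be read. The amplitude of Cry1 was larger than that of 96.5% of all genes in the fit without letters and 95.5% with them, where the median gene had 0.07. With the block, leaving out each letter in turn gave Cry1 amplitudes from 0.21 to 0.24, and it was called each time. Those fits called 2166, 2226, 1135 and 2660 of the 14355 genes without A, B, C and D.

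Cry2 in D2 neurons had an amplitude of 0.09 ± 0.03 on the log2 scale (SE), a peak-to-trough ratio of 1.13 and a peak at ZT 11.9. It was not called, with p = 0.0203 (n = 46 libraries) and an adjusted p of 0.236 by edgeR. With the letter as a block the amplitude was 0.08 ± 0.02 (SE), the peak ZT 11.7 and the adjusted p 0.000584, so that both members were called where 22.3% of all genes were. The Cry2 amplitude was larger than that of 59.6% of all genes, not far above the middle of the table. Leaving out each letter in turn in the blocked fit gave Cry2 amplitudes from 0.07 to 0.09 and called it each time. Those fits called from 1135 to 2660 of the 14355 genes. The fitted Cry1 peak came 4.94 h after the Cry2 peak in D2, or 5.25 h with the block, a gap that was not tested.

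In D1 neurons neither member was called rhythmic, where 0.495% of all genes were. Cry1 had an amplitude of 0.11 ± 0.05 on the log2 scale (SE), peaked at ZT 19.9 and had an adjusted p of 0.499 by edgeR. Cry2 had an amplitude of 0.05 ± 0.03 (SE), peaked at ZT 9.98 and had an adjusted p of 0.516 by edgeR. The D1 amplitude of Cry1 exceeded that of 61.6% of genes and that of Cry2 exceeded 20.7%. The D1 Cry1 means were high at both ZT2 and ZT14, a shape that a single 24 h cosine cannot hold. Whether they depart from a cosine beyond the spread was not tested. With time as 6 separate levels instead, D1 Cry1 had p = 0.0133 (n = 45 libraries) but an adjusted p of 0.647 by edgeR.

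A difference in rhythm between the cell types was not detected for either member. The difference between the D1 and D2 cosines had a size of 0.19 ± 0.09 on the log2 scale (SE) for Cry1, with an adjusted p of 0.653 by edgeR. For Cry2 it was 0.05 ± 0.04 (SE), with an adjusted p of 0.819. Of all genes, 0.0139% were called in this comparison. The call of Cry1 in D2 with the block and its absence in D1 therefore do not show that the cell types differ.

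**Figure D2:**
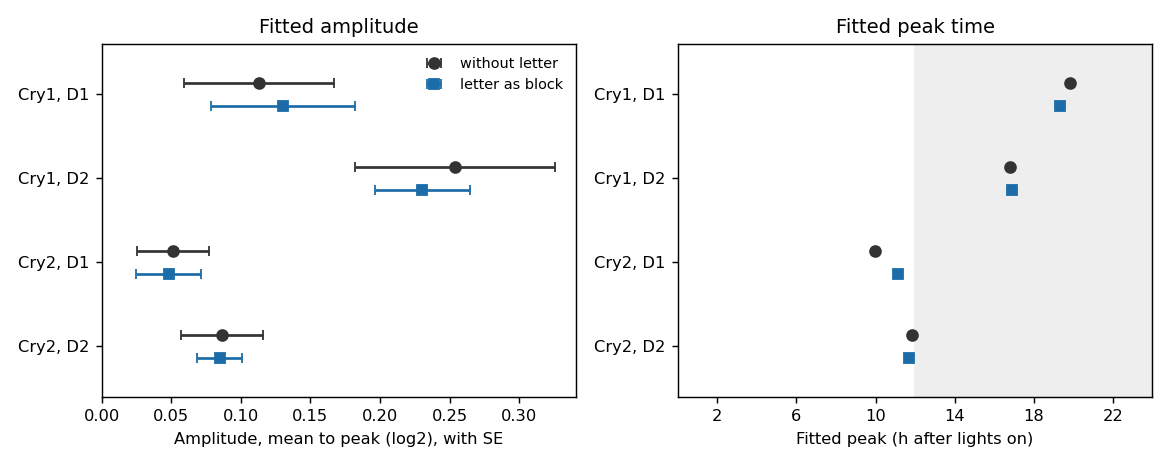
Fitted amplitude on the log2 scale with SE (left) and fitted peak time in h after lights on (right) for each member and cell type, without the letter (grey circles) and with the letter as a block (blue squares), with the dark phase shaded on the right. Cry1 in D2 has the largest amplitude, 0.25 without the letter and 0.23 with it, and peaks at ZT 16.8 to 16.9, while Cry2 in D2 peaks at ZT 11.7 to 11.9.

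D2 libraries of different letters differed in level, while the fitted Cry1 peak fell in the dark phase in each letter. D2 Cry1 averaged 40.1 ± 8.36 CPM in letter A (SD, n = 12; range 24.9 to 53.1) and 39.6 ± 5.22 CPM in B (SD, n = 10; 31.3 to 47.4). It averaged 26.1 ± 3.75 CPM in C (SD, n = 12; 22.1 to 34.4) and 26.4 ± 3.56 CPM in D (SD, n = 12; 20.1 to 32.0). A cosine fitted to each letter gave Cry1 amplitudes on the log2 scale of 0.30 in A, 0.21 in B, 0.20 in C and 0.23 in D. The peaks of those Cry1 fits were ZT 15.9, 17.6, 16.7 and 18.3 for letters A to D. D2 Cry2 followed the same split in level, with 176.8 ± 12.6 CPM in A (SD, n = 12), 164.8 ± 10.4 in B (SD, n = 10), 145.7 ± 11.8 in C (SD, n = 12) and 149.2 ± 7.82 in D (SD, n = 12). Its amplitudes were 0.11, 0.05, 0.12 and 0.06 in that order, with peaks at ZT 13.1, 9.47, 11.1 and 10.8. Library totals in D2 moved with the letters too, with means of 19727033 counts in A, 16241681 in B, 11336342 in C and 10904585 in D, and their part in the levels was not tested. Taking out the letter means lowered the SD of D2 Cry1 within a sex and time from 0.37 to 0.16 on the log2 scale. That of D2 Cry2 fell from 0.15 to 0.07. In D1 the SD fell from 0.24 to 0.20 for Cry1 and from 0.12 to 0.10 for Cry2. Part of each fall is built in, since the letter means were fitted to the same values. D1 Cry1 averaged 35.3 CPM in A, 36.9 in B, 31.1 in C and 31.3 in D. The fitted D1 Cry1 peaks were ZT 17.7 in A, 0.56 in B, 17.7 in C and 21.2 in D. Letter B had 9 D1 libraries, of which 2 stood apart, and a difference between letters was not tested.

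**Figure D3:**
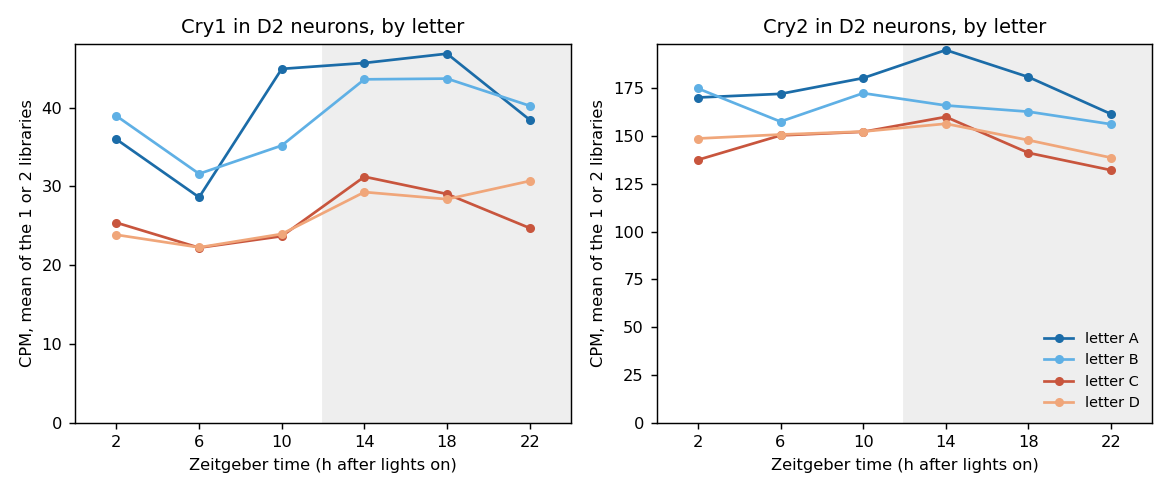
CPM of Cry1 (left) and Cry2 (right) in D2 neurons against zeitgeber time, each line a letter and each point the mean of its 1 or 2 libraries at that time, with the dark phase shaded. Letters A and B run above C and D, and Cry1 has fitted peaks between ZT 15.9 and ZT 18.3 in the 4 letters.

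Within each sex of D2 neurons, the fits without the letter called neither member, where 0.495% of all genes were called in females and 0.237% in males. With the letter as a block, Cry1 in females had an amplitude of 0.28 ± 0.05 on the log2 scale (SE), peaked at ZT 17.3 and had an adjusted p of 0.000558 by edgeR, where 12.5% of all genes were called. Male D2 neurons had a Cry1 amplitude of 0.18 ± 0.05 (SE), peaked at ZT 16.3 and had an adjusted p of 0.0319, where 9.11% of all genes were called. Cry2 had amplitudes of 0.09 ± 0.02 in females and 0.08 ± 0.02 in males (SE), with peaks at ZT 12.1 and 11.1 and adjusted p-values of 0.0211 and 0.0449 in the same fits. When each letter was left out of these blocked fits, Cry1 in females was called each time, with adjusted p-values by edgeR from 0.00335 to 0.00883, and the other calls were lost in most fits. Cry1 in males was called without letter A (adjusted p = 0.0121) and not without B, C or D (0.141, 0.207 and 0.120). Cry2 in females was called without B (adjusted p = 0.0162) and not without A, C or D (0.217, 0.149 and 0.0687). Cry2 in males was called without D (adjusted p = 0.0475) and not without A, B or C (0.115, 0.188 and 0.361). These calls and losses are to be read against all 14355 genes. Without A, B, C and D, the blocked male fits called 809, 238, 99 and 1070 genes. The blocked female fits called 644, 1217, 388 and 1896 genes in the same order. Without the letter the adjusted p-values by edgeR were 0.312 for Cry1 and 0.700 for Cry2 in D2 females, and 1.00 for both in D2 males.

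The rhythm of neither cryptochrome was shown to differ between the sexes. The difference of the male and female cosines was 0.14 on the log2 scale for Cry1 and 0.06 for Cry2 in D1, and 0.11 for Cry1 and 0.03 for Cry2 in D2. Adjusted p-values by edgeR were all 1.00. This comparison called 0% of genes in D1 (0 of 14355, with 226 at an unadjusted p under 0.05) and 0% in D2 (0 of 14355, with 389). DESeq2 called 0 genes in D1 and 2 in D2, and limma called 0 in each.

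Mean Cry2 was higher in males than in females at every time in both cell types, by an amount that did not pass the test. In D1 at ZT10 this rested on a library that stood apart. In D1 neurons Cry2 averaged 172.9 ± 15.2 CPM in males (SD, n = 22; lowest 151.4, median 168.8, highest 212.7) and 159.5 ± 12.2 CPM in females (SD, n = 23; 141.9, 157.4 and 182.6). The fitted difference was 0.12 ± 0.04 on the log2 scale (SE; 95% interval 0.05 to 0.20), or 1.09-fold, with p = 0.00236 (n = 45 libraries) and an adjusted p of 0.206 by edgeR. Male Cry2 was higher in 16 of 21 pairs of the same letter and time and in the means of 6 of 6 times. Letters were not taken to pair the D1 libraries, so this count is no test. The 3 libraries that stood apart were all male and all among the 16. At ZT10 the one that stood apart had 212.7 CPM. The other male libraries there had 175.7, 167.5 and 157.2 CPM, against a female mean of 168.6 CPM. The male and female groups overlapped, and 0.0418% of all genes were called for a sex difference in D1. Leaving out letter B gave 0.14 with an adjusted p of 0.0488 by edgeR, in a fit that called 2.05% of all genes, while leaving out the 3 male libraries that stood apart gave 0.10 with an adjusted p of 0.688. In D2 neurons Cry2 averaged 162.3 ± 16.7 CPM in males (SD, n = 23) and 155.5 ± 16.1 CPM in females (SD, n = 23), a fitted difference of 0.07 ± 0.04 (SE; 95% interval -0.02 to 0.15) with an adjusted p of 0.926, where 0.216% of all genes were called. With the letter as a block the D2 difference was 0.06 (95% interval 0.02 to 0.11) with an adjusted p of 0.0630 by edgeR, where 9.45% of all genes were called. Male Cry2 was higher in 14 of 22 D2 pairs and in the means of 6 of 6 times.

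A sex difference in Cry1 was not detected, although its pairs leaned the same way by number and not by size. Male Cry1 was higher in 15 of 21 D1 pairs and 13 of 22 D2 pairs of the same letter and time. The mean difference over these pairs, male minus female, was -0.005 ± 0.34 on the log2 scale in D1 (SD). In D2 it was 0.03 ± 0.24 (SD). Letters were not taken to pair the D1 libraries. The Cry1 means were higher in males at only 3 of 6 times in each cell type. It averaged 33.2 ± 5.44 CPM in male (SD, n = 22) and 33.8 ± 6.54 CPM in female D1 neurons (SD, n = 23), a fitted difference of -0.03 on the log2 scale (95% interval -0.18 to 0.13; adjusted p = 0.889 by edgeR). In D2 it averaged 33.1 ± 8.17 CPM in males (SD, n = 23) and 32.4 ± 9.47 CPM in females (SD, n = 23), a difference of 0.04 (95% interval -0.16 to 0.24; adjusted p = 0.929 by edgeR). The intervals allow Cry1 differences of the size seen for Cry2.

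**Figure D4:**
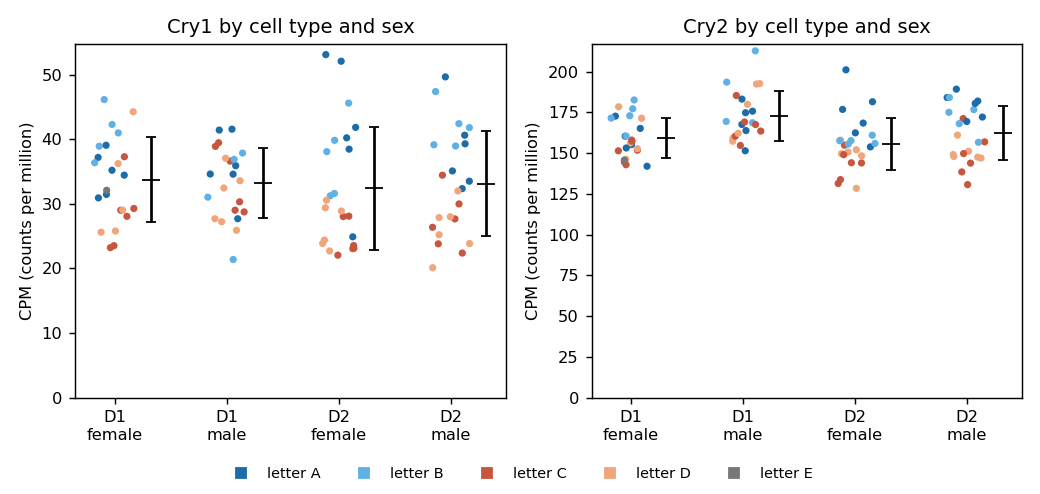
CPM of Cry1 (left) and Cry2 (right) in each cell type and sex, 1 point per library coloured by letter, with mean ± SD beside the points. Cry2 averages 172.9 CPM in male and 159.5 CPM in female D1 neurons and 162.3 and 155.5 CPM in D2, while the Cry1 groups lie between means of 32.4 and 33.8 CPM.

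Levels of both cryptochromes were close in D1 and D2 neurons. Cry1 averaged 33.5 ± 5.97 CPM in D1 (SD, n = 45; lowest 21.4, median 34.4, highest 46.1) and 32.8 ± 8.75 CPM in D2 (SD, n = 46; 20.1, 30.9 and 53.1). The fitted difference, D1 minus D2, was 0.05 ± 0.06 on the log2 scale (SE; 95% interval -0.08 to 0.18) with an adjusted p of 0.595 by edgeR. Cry2 averaged 166.1 ± 15.2 CPM in D1 (SD, n = 45; 141.9, 163.8 and 212.7) and 158.9 ± 16.5 CPM in D2 (SD, n = 46; 128.4, 156.3 and 201.0). Its difference was 0.07 ± 0.03 (SE; 95% interval 0.01 to 0.12), or 1.05-fold, with p = 0.0207 (n = 91 libraries) and an adjusted p of 0.0865 by edgeR, so that neither member was called where 19.3% of all genes were. The sign of the difference in means varied over the letters. Letters were not taken to pair D1 with D2 libraries, and this variation was not tested. Cry1 was lower in D1 than in D2 in letter A (35.3 against 40.1 CPM) and B (36.9 against 39.6). It was higher in C (31.1 against 26.1) and D (31.3 against 26.4). Cry2 was lower in D1 in letter A (163.7 against 176.8 CPM) and higher in B (178.7 against 164.8), C (158.9 against 145.7) and D (168.0 against 149.2). Without letter A the Cry2 difference was 0.13 and was called, with an adjusted p of 0.000509 by edgeR, in a fit that called 48.2% of all genes.

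The balance of the 2 cryptochromes was taken within single libraries, a measure that does not depend on scaling between libraries. In D2 the log2 ratio of Cry1 to Cry2 counts had means from -2.65 ± 0.20 at ZT6 (SD, n = 7) to -2.13 ± 0.25 at ZT18 (SD, n = 8). The other D2 means were -2.40 ± 0.21 at ZT2, -2.42 ± 0.32 at ZT10, -2.21 ± 0.24 at ZT14 and -2.16 ± 0.22 at ZT22. The D1 means were highest at ZT2, at -2.17 ± 0.16 (SD, n = 8), and at ZT14, at -2.18 ± 0.21 (SD, n = 7). They were lowest at ZT10, at -2.58 ± 0.36 (SD, n = 8), and at ZT6, at -2.49 ± 0.23 (SD, n = 8). Without the 3 libraries that stood apart the ZT10 mean was -2.48 ± 0.22 (SD, n = 7), level with ZT6. The D1 ratio was -2.24 ± 0.15 at ZT18 and -2.26 ± 0.09 at ZT22. The ratio was not tested. It also followed the letters in D2, with means of -2.17 in A, -2.07 in B, -2.49 in C and -2.51 in D.

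**Figure D5:**
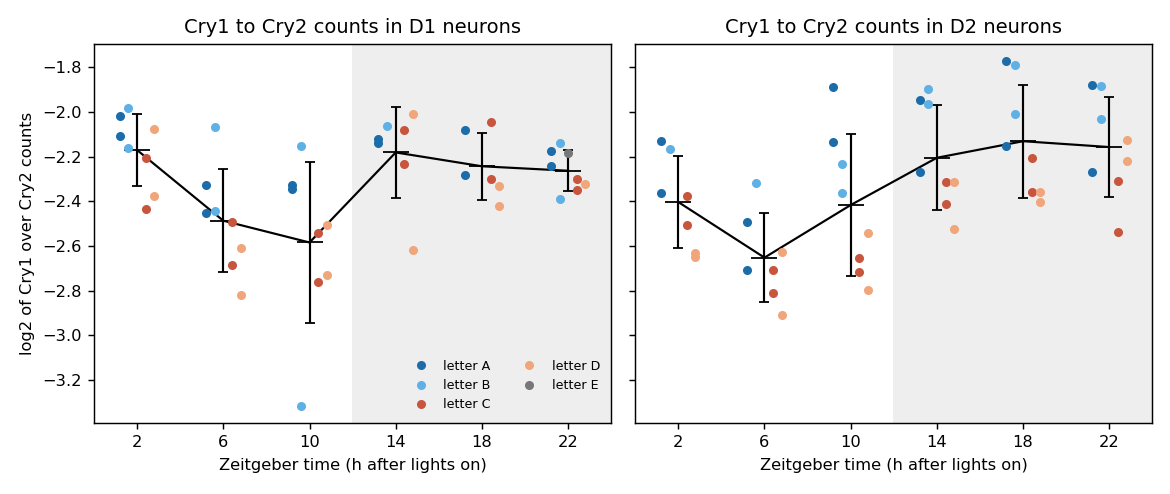
log2 ratio of Cry1 to Cry2 counts in each library of D1 (left) and D2 (right) neurons against zeitgeber time, coloured by letter, with mean ± SD at each time and the dark phase shaded. The D2 means run from -2.65 at ZT6 to -2.13 at ZT18, and the D1 means are low at ZT6 (-2.49) and ZT10 (-2.58, or -2.48 without the male letter B library that stood apart).

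Over the 12 means of cell type and time, each centred on its cell type, the patterns of Cry1 and Cry2 correlated with Pearson's r = 0.13, with -0.04 over the 6 D1 means and 0.22 over the 6 D2 means. Among 11809 genes with at least 5 CPM, 214 had r above 0.8 with Cry1 and 160 had r below -0.8, and for Cry2 these numbers were 34 and 23. These values describe means that share libraries, depth and letters, and no test was made on them. The closest patterns to Cry1 were those of ENSMUSG00000027665 (r = 0.97, mean 100.8 CPM) and ENSMUSG00000027520 (r = 0.97, 249.9 CPM), the second of which averaged 211.5 ± 27.4 CPM at ZT6 (SD, n = 7) and 270.2 ± 37.2 CPM at ZT14 (SD, n = 8) in D2. The most opposite to Cry1 were ENSMUSG00000043635 (r = -0.95, 204.9 CPM) and ENSMUSG00000040174 (r = -0.94, 17.1 CPM). The first of these averaged 224.0 ± 24.8 CPM at ZT6 (SD, n = 7) and 192.2 ± 17.4 CPM at ZT14 (SD, n = 8) in D2. For Cry2 the closest patterns were ENSMUSG00000024952 (r = 0.93, 33.4 CPM) and ENSMUSG00000017692 (r = 0.92, 33.8 CPM). The most opposite were ENSMUSG00000020717 (r = -0.89, 13.6 CPM) and ENSMUSG00000027716 (r = -0.88, 17.9 CPM). The first of these was close to the 5 CPM cutoff in D1. Its D1 means ran from 5.42 ± 1.42 CPM at ZT14 (SD, n = 7) to 6.82 ± 2.22 at ZT18 (SD, n = 6). In D2 they ran from 18.1 ± 5.25 CPM at ZT14 (SD, n = 8) to 23.4 ± 6.84 at ZT22 (SD, n = 8). Its r was -0.77 over the D1 means and -0.96 over the D2 means.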

How the data were processed

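The deposited table holds raw counts per gene for 91 libraries, not normalized by the authors, with genes filtered on log CPM at a threshold not given in the sources used here. Per the submitters' processing notes, FastQC 0.11.7, HISAT2 and HTSeq 0.10.0 were used, and the builds GRCm38 and GRCh38 were named without a role. Strand handling is likewise unstated.

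Counts were fitted in R 4.3.3 with edgeR 4.0.16 (TMM, quasi-likelihood F-test, Benjamini-Hochberg adjustment over all 14355 genes, threshold 0.05). D1, D2 and all libraries were fitted separately, with a mean and 24 h cosine per sex. The script was tested on simulated data. Alternatives were DESeq2 1.42.0, limma 3.58.1 on log2(CPM + 1), RLE size factors, filterByExpr, time as levels, one rhythm for both sexes, letters left out or as a block, and the 3 D1 libraries that stand apart left out. Letter numbering pairs the D2 libraries: all 243 same-letter D2 pairs deviated together (correlation over 0.1, lowest 0.22, median 0.74), so blocked values stand beside the D2 results whose call they change. In D1 70.0% of 223 pairs did (median 0.23, against -0.08 for pairs of other letters). Across cell types 74.7% of 510 did (median 0.44, against -0.18). Since not every pair did, letters were not taken to pair these libraries.

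Members, lists and tests were chosen with earlier results of these data known. Named genes are the members and the genes whose means over cell type and time correlate most, positively or negatively, with each, at least 5 CPM. The rule took more, but unnamed identifiers are limited to 2 per direction. None of the 49997 RefSeq table entries carried an Ensembl identifier (0), so the clock gene and cell type marker lists could not be scored. Promoters matched by symbol for both members (2) come from RefSeq, GRCm38.p6.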

Additional observations from a re-analysis of the deposited data

Results flagged for a closer look

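Within the 38 combinations of gene, cell type, sex and time that held 4 libraries, 3 had a library far from the other 3, all for Cry2. Chance alone gives such a library in about 1 of 20 groups. Among female D1 libraries at ZT10, letter C had 157.4 CPM of Cry2 and the others 171.4 to 172.9. Among male D1 libraries at ZT2, letter D had 192.6 CPM of Cry2 and the others 167.6 to 169.4. Among female D2 libraries at ZT14, the time of the highest D2 mean, letter A had 201.0 CPM of Cry2 and the others 149.0 to 155.6.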

How the results depend on the processing

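Counting error reached a coefficient of variation of 7.54% for Cry1 and 3.39% for Cry2, and D2 library totals moved with the letters. The spread between libraries of the same cell type, sex and time was larger. Its SD corresponded to 18.2% in D1 and 29.2% in D2 for Cry1, and to 8.58% and 10.8% for Cry2. This spread, which includes counting error, limits how small a difference can be seen. DESeq2, RLE size factors, filterByExpr, limma and one rhythm for both sexes kept the direction of every Cry1 and Cry2 result they were run on. They also kept the side of the threshold wherever they gave an adjusted p. DESeq2 gave none for the Cry1 sex difference in D2. With the letter as a replicate block, Cry1 (0.23) and Cry2 (0.085) were called rhythmic in D2, as they were with the block and time as levels, added after seeing the data (0.26 and 0.10, adjusted p 0.000314 and 0.00556 by edgeR). Blocked fits without letters A, B, C and D, also added after seeing the data, gave D2 amplitudes of 0.21, 0.24, 0.24 and 0.23 for Cry1 and of 0.079, 0.093, 0.071 and 0.091 for Cry2. Letters were not taken to pair D1 libraries or D1 with D2. There the replicate block put 2 Cry2 results past the threshold. D1 minus D2 was 0.071 with the block (adjusted p 0.00951, 38.1% of all genes called). It was 0.068 when the 3 libraries standing apart were also left out (adjusted p 0.0159, 42.2% of all genes called). The sex difference in D1 was 0.12 with the block (adjusted p 0.0226, 7.26% of all genes called). But it was 0.11 when those 3 libraries were also left out (adjusted p 0.0918, 0.23% of all genes called). All these p-values are edgeR's. The block changed no other call of a Cry1 or Cry2 level or of a rhythm averaged over the sexes.

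Leaving out each letter, the Cry2 difference D1 minus D2 ran from 0.041 to 0.13, with 0.14 in the blocked fit without letter A. The Cry2 sex difference in D1 ran from 0.12 to 0.14, with 0.14 in the blocked fit without letter B. Cry1 signs turned where differences were near 0. D1 minus D2 ran from -0.0085 to 0.14. The blocked fit without letter A called it, at 0.18, where 64% of all genes were called. The Cry1 sex difference in D1 ran from -0.12 to 0.092 when each letter was left out. It was 0.0057 without the 3 libraries standing apart, 0.057 with the block as well, and 0.095 and 0.024 with the block and without letters B and D. The Cry1 sex difference in D2 ran from -0.012 to 0.098, and was -0.0024 with the block and without letter B. The sex difference of the Cry1 rhythm in D2 ran from 0.038 to 0.18, and its direction turned without letter A. The causes were not tested.

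Counts over all genes moved more. Rhythmic genes in D1 numbered 71, and 162 with the block, 215 by DESeq2, 177 without the 3 libraries standing apart, 293 with the block and without them, 26 with time as levels and 47 with time as levels and the block. Leaving out each letter gave 13 to 54, and with the block 40, 118, 23 and 25 without A, B, C and D. Rhythmic genes in D2 numbered 422, and 3198 with the block, 669 by DESeq2, 91 with time as levels and 1463 with time as levels and the block. Leaving out each letter gave 55 to 261, and with the block 2166, 2226, 1135 and 2660 without A, B, C and D. Genes differing between D1 and D2 numbered 2770, and 5471 with the block and 6057 with the block and without the 3 libraries. Leaving out each letter gave 1767 to 6912, and with the block 9186 without A and 4775 without B.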
